A study of Mus musculus with 4 samples.

Results

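The stretch of mouse chromosome 3 described here runs from the base after the 3′ end of *Lef1* to the last scored restriction fragment before an assembly gap, on the telomeric side, and holds *Hadh*, *Cyp2u1* and the 3′ part of *Sgms2*. Its members were the restriction fragments whose midpoint lies at chr3:131224357-131373449 of the mm10 (GRCm38) assembly. There were 165 such fragments, of 137330 scored on chromosome 3 and 2350945 in the whole genome, and they cover 149093 bp. They were read by 4C-Seq, in which chromatin is crosslinked, cut with NlaIII and ligated, and the fragments joined to a chosen viewpoint are then sequenced. A high score therefore marks a fragment that was often read as joined to the viewpoint. The joined fragments were amplified by PCR before sequencing, so that a score is not a count of ligations. The viewpoints were the *Lef1* promoter and Leaf, an intergenic regulatory element on the other, centromeric side of *Lef1*, and the study used them to look at contacts between the element and the promoter. The libraries came from OF1 mice, in one case from microdissected whisker pads of E12.5 embryos (120 pads pooled for a condition, whole tissue dissociated to single cells) and in the other from whole adult kidney, the control tissue. Each pairing of tissue and viewpoint had 1 library, 4 in all, so that no difference given here has a replicate check, a test or an error. The tissues also differ in age, and tissue and age cannot be told apart. Both are mixtures of cell types, and a contact in a few cells cannot be told from a weaker contact in many.

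The flank lies 116 to 265 kb from the middle of the promoter viewpoint and 205 to 354 kb from that of Leaf. All values below are normalized scores, that is, the deposited raw score of a fragment divided by the mean of the fragments of chromosome 3 within 1 Mb of that viewpoint in the same library, so that 1 is the average of the neighbourhood. It was 101 in whisker pad and 21.3 in the kidney from the promoter, and 65.0 and 16.5 from Leaf. Summed over all chromosomes, the raw scores of whisker pad and kidney were 854206 and 821297 from the promoter, and 837132 and 787783 from Leaf. The kidney libraries also had fewer fragments with a score above 0 within 1 Mb, namely 29.1% against 59.5% from the promoter and 14.0% against 37.1% from Leaf. Read depth is unknown, and the part of this difference in the results below was not tested.

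As background, *Lef1* encodes a DNA-binding factor of the TCF/LEF family that acts in Wnt/β-catenin signalling. The 3 neighbours on this side are genes of lipid metabolism. *Hadh* encodes the mitochondrial short-chain 3-hydroxyacyl-CoA dehydrogenase of fatty acid β-oxidation, *Cyp2u1* a cytochrome P450 that hydroxylates fatty acids, and *Sgms2* a sphingomyelin synthase. A 4C-Seq score says how often a fragment was read as joined to the viewpoint and nothing about the transcription of the gene it lies in. Scores fall with distance from a viewpoint along the chromosome, so that levels of genes at different distances are not comparable as they stand. For this reason a profile corrected score is also given in places, for which the normalized score was divided by what a fit on log-log axes with the slope held at -1 gave for its distance in that library. The fit used only the fragments above 0 within 1 Mb. Their share differed between the libraries, so that corrected levels of different libraries are not on a common scale.

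In the GENCODE M21 annotation, *Hadh* (ENSMUSG00000027984.8) lies at chr3:131233419-131272101, *Cyp2u1* (ENSMUSG00000027983.13) at chr3:131288441-131303227 and *Sgms2* (ENSMUSG00000050931.7) at chr3:131318985-131491411. All 3 are on the minus strand, so that their 3′ ends face *Lef1*, which is on the plus strand. The flank also overlaps *4930534D22Rik*, an antisense transcript on the plus strand, and the processed pseudogenes *Gm18492* and *Gm43116*. Beyond the flank follow 90.9 kb with no scored fragment, of which 98.9% are unknown bases, and the start of *Sgms2* is on the far side of them. Of the 165 fragments, 36 overlap an exon, 102 lie in introns and 27 are intergenic. Their median length was 334 bp and their median GC content 46.0%.

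The sequences of 3 fragments show what was measured and are among those with the highest values in whisker pad. They are given on the plus strand of GRCm38 with the NlaIII sites at both ends, and the capitals mark the NlaIII sites (CATG) and the DpnII sites (GATC) of the secondary digest. The first, at chr3:131233127-131233418, ends at the base before *Hadh* and had the highest score of the flank from the promoter in whisker pad. The second, at chr3:131224995-131225231, is intergenic next to the 3′ end of *Lef1* and had the highest score from Leaf in whisker pad. The third, at chr3:131266742-131267005, was chosen after its values were seen. It lies in an intron of *Hadh*, had the third highest score from the promoter in whisker pad and was at 0 in both kidney libraries.
Fragment beside *Hadh*: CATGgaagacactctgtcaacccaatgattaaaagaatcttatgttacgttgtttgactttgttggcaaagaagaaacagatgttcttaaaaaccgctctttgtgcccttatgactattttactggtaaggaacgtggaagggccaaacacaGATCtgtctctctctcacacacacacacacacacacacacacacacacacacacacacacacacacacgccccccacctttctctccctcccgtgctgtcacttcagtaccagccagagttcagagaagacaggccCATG
Fragment beside *Lef1*: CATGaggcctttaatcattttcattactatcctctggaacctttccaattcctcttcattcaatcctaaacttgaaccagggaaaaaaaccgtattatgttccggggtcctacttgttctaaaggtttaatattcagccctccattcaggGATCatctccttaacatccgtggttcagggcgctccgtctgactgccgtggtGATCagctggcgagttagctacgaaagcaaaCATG
Fragment in a *Hadh* intron: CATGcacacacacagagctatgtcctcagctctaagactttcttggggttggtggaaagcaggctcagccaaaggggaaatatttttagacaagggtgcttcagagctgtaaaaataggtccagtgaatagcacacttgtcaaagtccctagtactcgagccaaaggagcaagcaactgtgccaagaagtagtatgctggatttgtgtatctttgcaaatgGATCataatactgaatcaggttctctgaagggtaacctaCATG

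All scored fragments of chromosome 3 began and ended at NlaIII sites. A DpnII site was present in 164 of the 165 fragments of the flank and in 98.3% of all fragments of the chromosome. The fragment beside *Hadh* scored 5.70 from the promoter and 2.72 from Leaf in whisker pad, and 1.52 and 0 in kidney. The fragment beside *Lef1* scored 2.55 and 6.07 in whisker pad, and 0.91 and 0 in kidney. The fragment in the *Hadh* intron scored 4.18 and 2.63 in whisker pad and was listed at 0 in kidney from both viewpoints. In all 3 cases both whisker pad libraries were above the kidney library of the same viewpoint, which the choice of these fragments by their whisker pad scores favours.

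Over the whole flank, contacts were found in more fragments in whisker pad than in kidney, and from the promoter more than from Leaf. From the promoter, 132 of the 165 fragments (80.0%) had a score above 0 in whisker pad and 54 (32.7%) in the kidney. From Leaf, 65 (39.4%) were above 0 in whisker pad and 12 (7.27%) in the kidney. The 2 tissues thus stood in the same order from both viewpoints. The mean score was 0.84 in whisker pad and 0.63 in the kidney from the promoter, a log2 ratio of 0.36 with a pseudocount of 0.1 added to both means. From Leaf, it was 0.53 and 0.22, a log2 ratio of 1.01. All 4 means were below 1, the average of the 1 Mb on either side.

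The shares above 0 can be read against the rest of the neighbourhood, since kidney had fewer such fragments everywhere. Relative to all fragments within 1 Mb, the share above 0 in the flank was 1.34 times as high in whisker pad and 1.12 times as high in kidney from the promoter. From Leaf, it was 1.06 times as high in whisker pad and 0.52 times in kidney. The kidney library with Leaf as viewpoint was therefore the one of the 4 in which the flank had a lower share of detected fragments than its surroundings. Beyond 5 Mb on chromosome 3, the share above 0 was 2.75% in whisker pad and 1.70% in the kidney from the promoter, and 0.98% and 0.70% from Leaf. The flank stood above these distant levels in all 4 libraries.

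**Figure D1:**
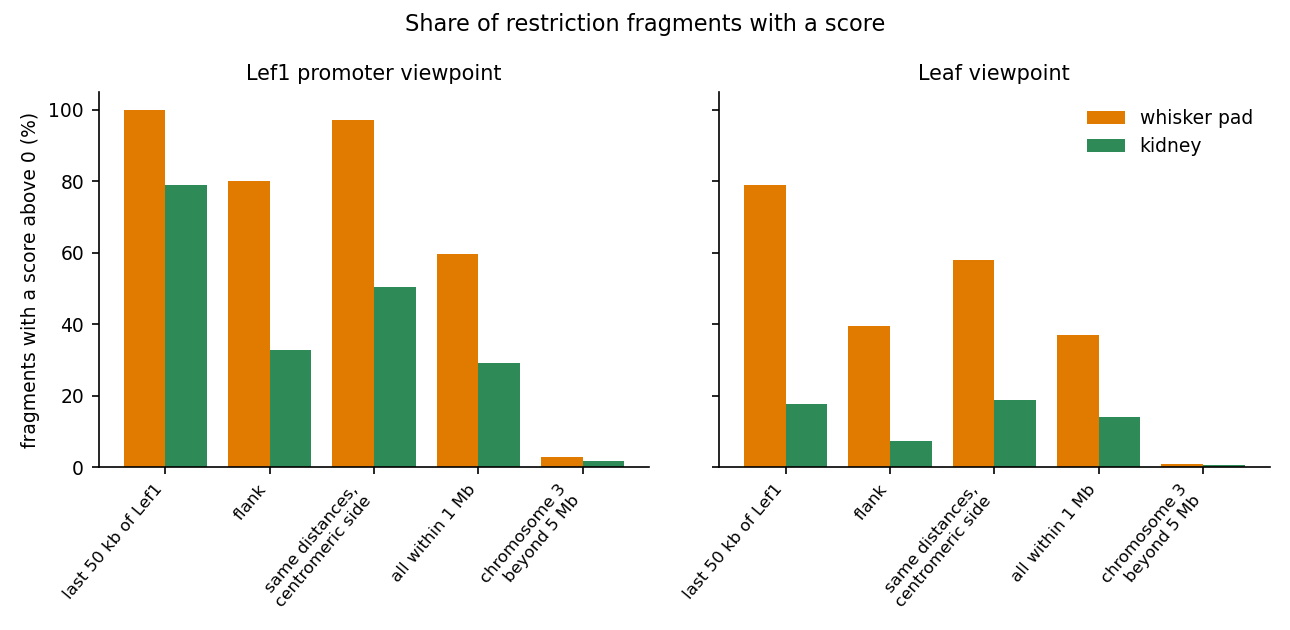
Share of restriction fragments with a score above 0 (vertical axis, %) in the last 50 kb of *Lef1*, the telomeric flank, the stretch at the same distances on the centromeric side, all fragments within 1 Mb and chromosome 3 beyond 5 Mb, with 1 bar per library (orange, whisker pad; green, kidney). In the flank the bars stand at 80.0% and 32.7% from the promoter and at 39.4% and 7.27% from Leaf, and both whisker pad bars exceed those of kidney.

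The kidney means rested on few fragments, whose scores were high on the normalized scale. Among fragments above 0, the mean score was 1.05 in whisker pad and 1.93 in the kidney from the promoter. From Leaf, it was 1.35 and 2.96. On this scale the order of the tissues was thus the opposite of that over all fragments. The neighbourhood means used as divisors were 101 and 21.3 from the promoter, and 65.0 and 16.5 from Leaf. With the division undone, fragments above 0 scored lower on average in kidney from both viewpoints. The opposite order therefore came with the division. The highest fragment held 4.12% of the flank's score in whisker pad and 9.51% in the kidney from the promoter. From Leaf, it held 6.89% in whisker pad and 60.9% in the kidney. Without the highest fragment of each library, the mean was 0.81 and 0.57 from the promoter, and 0.50 and 0.085 from Leaf. The kidney value from Leaf thus fell from 0.22 to 0.085 when 1 fragment was left out, and the log2 ratio of whisker pad over kidney rose from 1.01 to 1.70.

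That fragment, at chr3:131373140-131373449, is the last one before the gap and lies in an intron of *Sgms2*. It scored 0.57 in whisker pad and 0 in the kidney from the promoter, and 3.03 and 21.6 from Leaf. On the other side of the gap, a fragment in an *Sgms2* intron (chr3:131476539-131477604) also had a high kidney score from Leaf, 21.9, with 2.22 in whisker pad from Leaf and 0.81 and 0 from the promoter. The deposited raw scores from Leaf in whisker pad and kidney were 197 and 358 for the fragment before the gap, and 144 and 363 for the one beyond it. Both fragments were above 0 in whisker pad from both viewpoints, and in kidney they were above 0 from Leaf only.

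The flank was also compared with its surroundings, first with the end of *Lef1*, which is nearer to both viewpoints, and then with stretches at like distances. In the last 50 kb of *Lef1* (62 fragments), the mean was 2.61 in whisker pad and 2.03 in the kidney from the promoter, and 1.51 and 0.71 from Leaf. These values were 3.11, 3.22, 2.84 and 3.31 times the flank's, in the same order of libraries, with the difference in distance included. Profile corrected, the means of this part of *Lef1* were 1.82, 0.94, 1.30 and 0.40, and those of the flank 1.04, 0.52, 0.62 and 0.21. On the centromeric side, the fragments at the same distances from the promoter (177 fragments, chr3:130844077-130993169) had means of 1.87 in whisker pad and 1.02 in the kidney, which were 2.24 and 1.61 times those of the flank. At the same distances from Leaf (138 fragments, chr3:130665631-130814723), the means were 1.05 and 0.73, or 1.96 and 3.38 times those of the flank. In all 4 libraries the telomeric flank was lower than the stretch opposite, by mean and by the share above 0.

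Along the flank, the promoter scores of whisker pad were highest in the bins next to *Lef1*, and all bins after *Hadh* were lower than those before its end. From the promoter in whisker pad, the mean was 2.53 in the last 10 kb of *Lef1*, 2.19 in the first 10 kb bin of the flank, and 1.82, 1.34, 0.91 and 1.34 in the following 4 bins, which reach just beyond the start of *Hadh*. It was 0.37 in the sixth bin and between 0.13 and 0.71 in the last 10 bins. In kidney, it was 2.13 in the last 10 kb of *Lef1*, 1.33 and 2.07 in the first and second bins of the flank and between 0 and 1.28 in the last 10 bins. Both tissues had their highest promoter values in the first or second bin.

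From Leaf, the mean in whisker pad was 2.52 in the last 10 kb of *Lef1* and 1.22, 0.67, 0.96, 1.14 and 1.20 in the first 5 bins, and it was 0.044 in the sixth. In the last 10 bins the highest was 0.93, in the seventh, which holds the pseudogene *Gm18492*. In kidney, it was 1.00 in the last 10 kb of *Lef1*, between 0.076 and 0.30 in the first 5 bins and 0 in 7 of the last 10. The exceptions in kidney were the seventh bin (0.051), the fourteenth (0.23) and the fifteenth (2.16), which holds the fragment next to the gap.

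**Figure D2:**
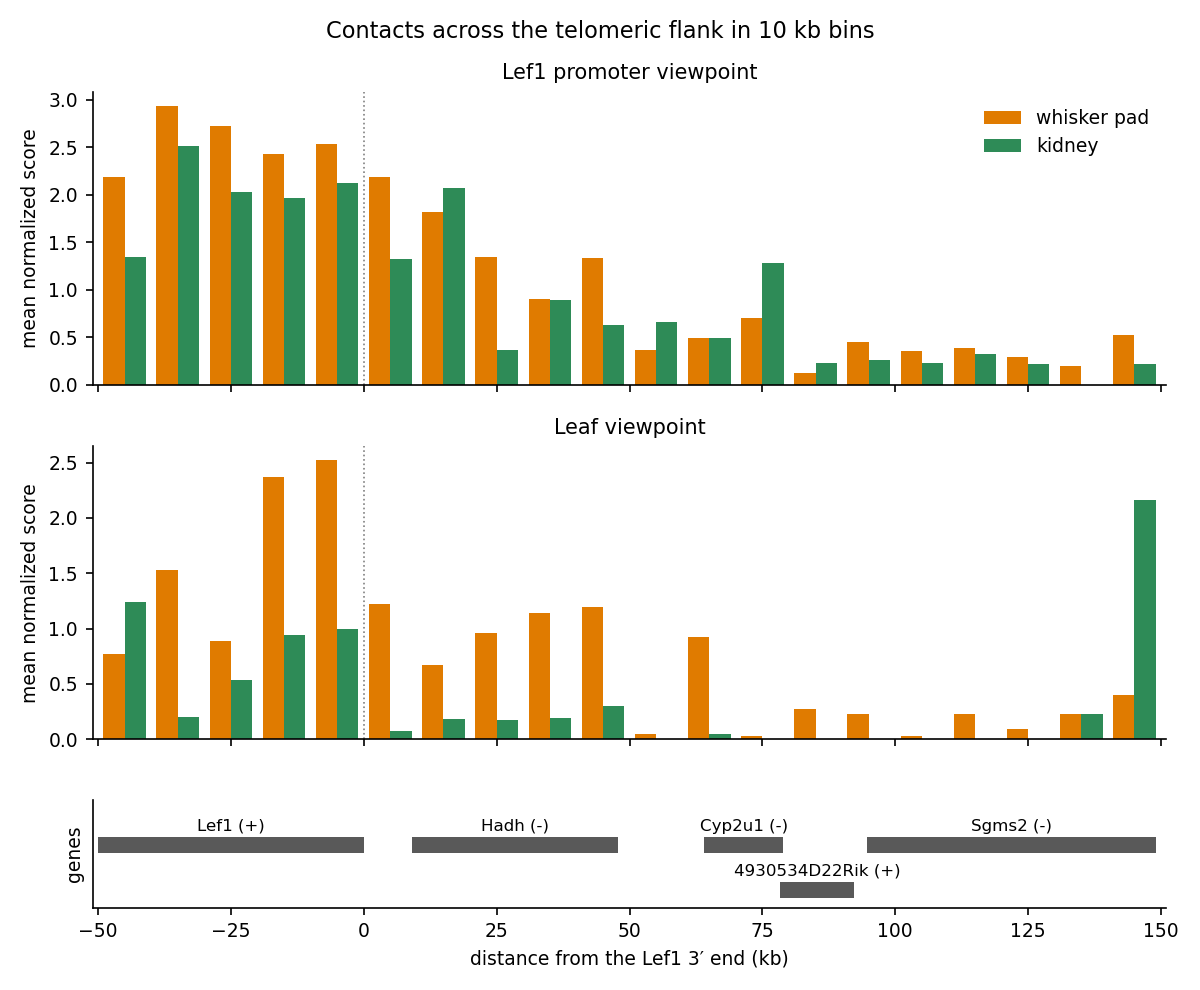
Mean normalized score in 10 kb bins (vertical axis) against the distance from the *Lef1* 3′ end in kb (horizontal axis), from the *Lef1* promoter (upper panel) and Leaf (middle panel), for whisker pad (orange) and kidney (green), with the genes and their strands drawn to scale below. From the promoter, the whisker pad bars fall from 2.19 in the first bin of the flank to 0.37 in the sixth, and from Leaf the one tall kidney bar is the last, at 2.16.

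When the flank was divided at the telomeric end of *Hadh*, 60 fragments lay before it and 105 beyond. This division was chosen after the profile had been seen and is a description. From the promoter in whisker pad, 58 of the 60 (96.7%) and 74 of the 105 (70.5%) were above 0, with means of 1.59 and 0.41. In kidney, 31 (51.7%) and 23 (21.9%) were above 0, with means of 1.09 and 0.37. From Leaf, 40 (66.7%) and 25 (23.8%) were above 0 in whisker pad, with means of 1.09 and 0.22. In kidney, 9 (15%) and 3 (2.86%) were above 0, with means of 0.19 and 0.23, the second of which was 0.026 without the fragment next to the gap. The quotient of the means was 3.90 in whisker pad and 2.95 in the kidney from the promoter, 5.06 in whisker pad from Leaf, and 0.81 in kidney from Leaf, or 7.23 without that fragment.

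Distance alone would lower these values, and the profile corrected scores take out a fall in proportion to distance. Corrected in this way, the mean before and beyond the end of *Hadh* was 1.68 and 0.68 in whisker pad and 0.75 and 0.39 in kidney from the promoter. From Leaf, it was 1.17 and 0.31 in whisker pad. In kidney from Leaf, it was 0.14 and 0.25, or 0.027 beyond *Hadh* without the fragment next to the gap. The lower level beyond *Hadh* was thus also present in the corrected scores in 3 of the 4 libraries, and in the kidney library from Leaf once that fragment was left out.

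*Hadh*, nearest to *Lef1* of the 3 genes, held the largest part of the flank's score in 3 of the 4 libraries. Its 46 fragments had a mean of 1.36 in whisker pad and 0.99 in the kidney from the promoter, and 1.12 and 0.23 from Leaf. Of the 46, 44 and 21 were above 0 from the promoter, and 30 and 7 from Leaf. The log2 ratio of whisker pad over kidney was 0.41 from the promoter and 1.90 from Leaf. With 46 of the 165 fragments, *Hadh* held 45.3% of the flank's score in whisker pad and 43.9% in the kidney from the promoter, and 58.5% and 29.3% from Leaf. The stretch between *Lef1* and *Hadh*, with 14 of the 165, held 23.8% and 18.8% from the promoter, and 15.8% and 2.23% from Leaf. Whisker pad was higher by mean and by the number of fragments from both viewpoints.

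No scored fragment held the start of *Hadh*, and the fragments on either side of it gave different values. The next one upstream (chr3:131272193-131272911) scored 1.83 in whisker pad from the promoter and was at 0 in the other libraries. The next one downstream, in the gene (chr3:131271924-131271971), scored 0 in whisker pad and 3.90 in the kidney from the promoter, and 0.049 and 0 from Leaf. These single fragments thus stood in opposite order between the tissues.

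Several of the highest fragments of the flank were in *Hadh*. The 3′ end of the gene lies in a fragment (chr3:131233419-131234023) that was above 0 in all 4 libraries, with 1.78 in whisker pad and 1.62 in the kidney from the promoter and 5.67 and 0.42 from Leaf. An intronic fragment at chr3:131268838-131269593 scored 4.54 in whisker pad and 4.17 in the kidney from Leaf, and 0.55 and 0.84 from the promoter, so that it was high from Leaf in both tissues. Another, at chr3:131239505-131240083, scored 2.13 in whisker pad and 8.82 in the kidney from the promoter, and 0.033 and 0 from Leaf. Its deposited raw scores from the promoter were 216 in whisker pad and 188 in kidney, the opposite order. Among the 7 fragments of the flank with a score above 0 in all 4 libraries, 6 were of the 46 in *Hadh* and 1 was of the 14 between *Lef1* and *Hadh*. The share of such fragments in the neighbourhood is not given here, so that this count is a description only.

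*Cyp2u1* had lower values than *Hadh* in every library. Its 12 fragments had a mean of 0.53 in whisker pad and 0.40 in the kidney from the promoter, and 0.15 in whisker pad from Leaf. In kidney from Leaf, all 12 were listed at 0. From the promoter, 9 were above 0 in whisker pad and 5 in the kidney, and from Leaf 5 in whisker pad. The log2 ratio of whisker pad over kidney from the promoter was 0.33, and it turned to -0.72 when fragments overlapping the gene were counted in place of those with their midpoint in it, and to -0.30 with the smoothed scores that were deposited beside the raw ones.

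A fragment at the edge of the gene, with its midpoint outside it, holds the annotated start of *Cyp2u1* (chr3:131303197-131303862) and also overlaps an exon of *4930534D22Rik*, so that its score cannot be given to one of the 2 genes. It scored 2.06 in whisker pad and 9.91 in the kidney from the promoter, the highest value of the flank in that kidney library, and was listed at 0 from Leaf in both tissues. Its deposited raw scores from the promoter were 209 in whisker pad and 211 in kidney, so that the gap between the tissues came with the division by the neighbourhood mean. RefSeq places the start of *Cyp2u1* farther along, at position 131304157, and the fragment that holds this position (chr3:131303897-131304516) scored 0.33 in whisker pad and 0 in the kidney from the promoter, and 0.016 and 0 from Leaf. Which fragment holds the start therefore depends on the annotation, and of the 2 only the former was high in kidney. The stretch between *Cyp2u1* and *Sgms2* (14 fragments), which holds the midpoint of the high fragment, had a mean of 0.45 in whisker pad and 0.97 in the kidney from the promoter, and 0.32 and 0.29 when the highest fragment of each library was left out.

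*Sgms2* had low values from the promoter, and from Leaf its kidney level rested on a pair of fragments. Within the flank, its 64 fragments had a mean of 0.34 in whisker pad and 0.19 in the kidney from the promoter, with 43 and 9 above 0. From Leaf, the mean was 0.19 in whisker pad and 0.37 in the kidney, with 14 and 2 above 0. Without the fragment next to the gap, the last 2 means were 0.15 and 0.036, so that the order of the tissues turned. Over the whole gene, including 29 fragments beyond the gap, the mean was 0.35 and 0.20 from the promoter and 0.24 and 0.49 from Leaf, log2 ratios of 0.56 and -0.78. The ratio from Leaf was -0.21 without the fragment next to the gap and turned to 1.44 with the share of fragments above 0. Without the fragments on either side of the gap, the means from Leaf were 0.19 in whisker pad and 0.025 in kidney. The order of the tissues thus turned over the whole gene too. The fragment that holds the start of *Sgms2* (chr3:131489501-131491752) scored 1.71 in whisker pad from the promoter and was at 0 in the other 3 libraries.

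The stretches between the genes followed the same order along the chromosome from the promoter in whisker pad. There, the mean was 2.35 between *Lef1* and *Hadh* (14 fragments, all above 0), 1.36 in *Hadh*, 0.55 between *Hadh* and *Cyp2u1* (15 fragments), 0.53 in *Cyp2u1*, 0.45 between *Cyp2u1* and *Sgms2* and 0.34 in *Sgms2*. From Leaf in whisker pad, it was 0.99 between *Lef1* and *Hadh*, 1.12 in *Hadh* and 0.42 between *Hadh* and *Cyp2u1*, of which 1 fragment in the pseudogene *Gm18492* scored 3.54. The same fragment scored 0.92 in whisker pad and 0 in the kidney from the promoter, and 0.41 in kidney from Leaf. *Gm43116* held the midpoint of 0 fragments.

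**Figure D3:**
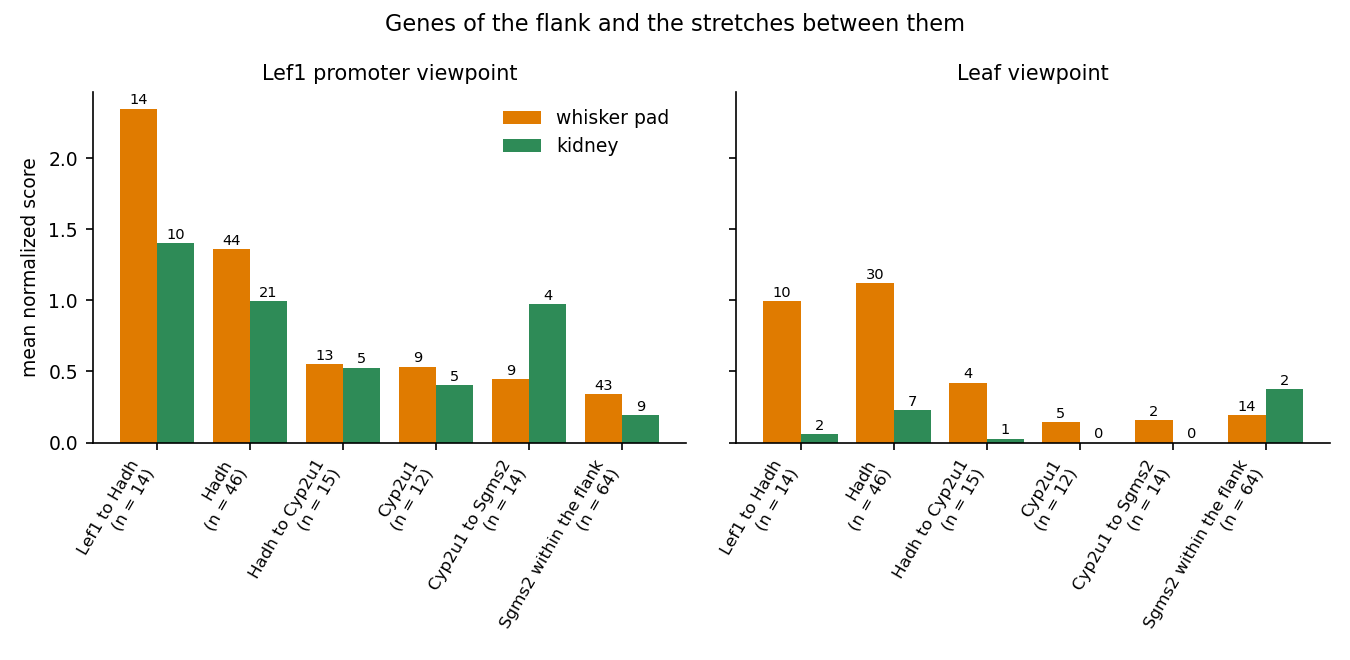
Mean normalized score (vertical axis) of the genes of the flank and the stretches between them, in their order along the chromosome, from the *Lef1* promoter (left) and Leaf (right), with 1 bar per library (orange, whisker pad; green, kidney). The number of fragments is given under each name and the number above 0 over each bar. *Hadh* stands at 1.36 and 0.99 from the promoter and at 1.12 and 0.23 from Leaf, and the taller kidney bars are those of the stretch between *Cyp2u1* and *Sgms2* from the promoter and of *Sgms2* from Leaf.

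Set beside the 9 protein-coding genes within 1 Mb that had at least 3 scored fragments, *Hadh* was the third highest from the promoter in whisker pad and the second in kidney. From Leaf, it was the third in whisker pad and number 5 in kidney. *Cyp2u1* was number 4 in whisker pad and 5 in kidney from the promoter, and number 8 and 9 from Leaf. *Sgms2* was number 6 and 7 from the promoter, and number 5 and 3 from Leaf. The place in kidney from Leaf rested on the fragments on either side of the gap, since 3 of the 93 fragments of the gene were above 0, and without the pair, left out after their values had been seen, the mean fell from 0.49 to 0.025 and *Sgms2* was number 7. *Lef1* was the first from the promoter in both tissues, with 5.07 in whisker pad and 6.57 in the kidney. These places follow distance in part, and with 1 library each it is not known which neighbours in the order differ beyond their spread.

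The comparison of tissues was then made in the 15 bins of 10 kb, in which a bin was counted when the log2 ratio of its means reached 1 in size, that is, at least 2-fold. From the promoter, 2 of the 15 bins were at least 2-fold higher in whisker pad, while 22.6% of all 190 bins within 1 Mb were. They were the third bin, inside *Hadh* (1.34 against 0.37), and the fourteenth, inside *Sgms2* (0.20 against 0). In the other direction 0 bins of the flank were counted, beside 12.6% of all bins. The median log2 ratio was 0.33 in the flank and 0.21 over all bins. Whether the flank differs from other bins was not tested, and with the share of fragments above 0 in place of the mean score 10 of the 15 bins were counted, beside 48.4% of all bins.

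From Leaf, 9 of the 15 bins were at least 2-fold higher in whisker pad, against a background of 36.8% of 190 bins. They included the first 5 bins, up to the start of *Hadh*, in which whisker pad was between 0.67 and 1.22 and kidney between 0.076 and 0.30. These bins are neighbouring parts of 1 library per tissue and not replicates. Kidney was at least 2-fold higher in 1 bin, the fifteenth, against 17.4% of all bins, and in 0 bins when the fragment next to the gap was left out. The median log2 ratio was 1.70 in the flank and 0.42 over all bins. In 7 of the 15 bins kidney was listed at 0, and the ratio of these bins is set by the pseudocount.

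**Figure D4:**
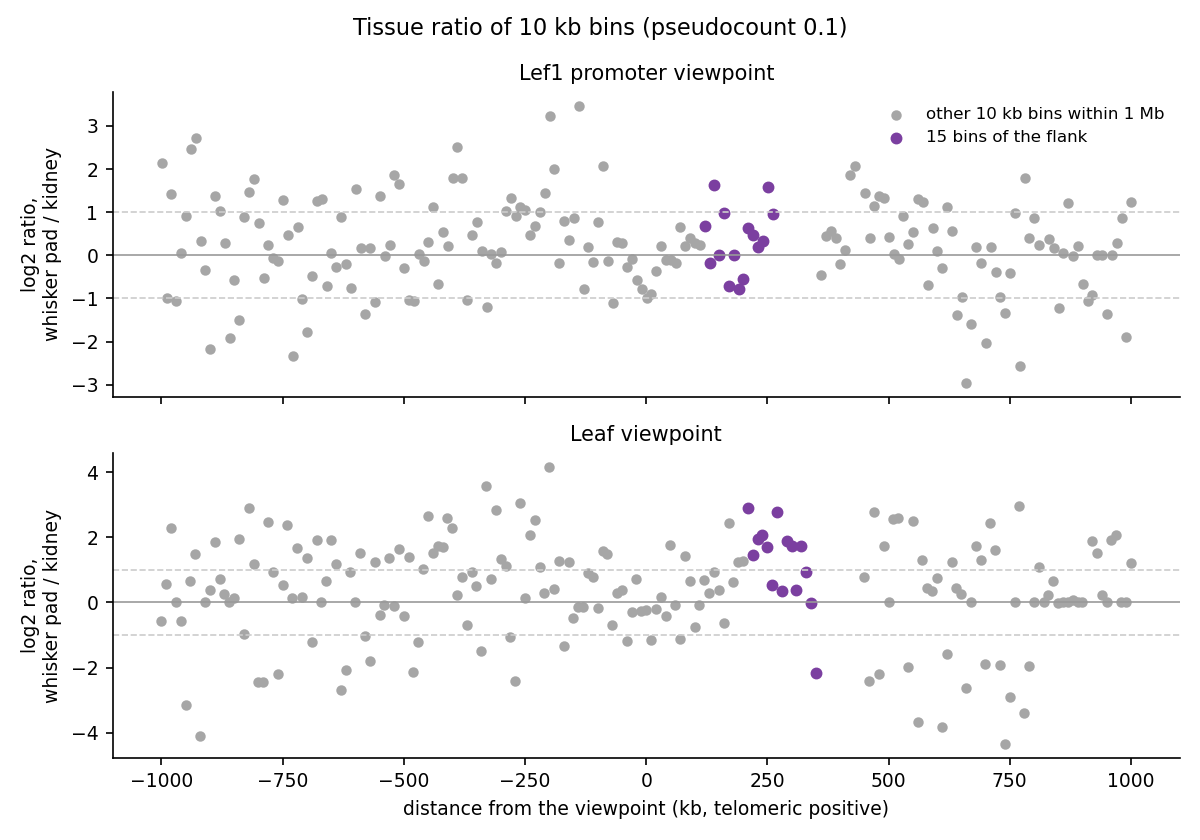
The log2 ratio of whisker pad over kidney (vertical axis, pseudocount 0.1) in 10 kb bins against the distance from the viewpoint in kb (horizontal axis, telomeric side positive), for the *Lef1* promoter (upper panel) and Leaf (lower panel), with the 15 bins of the flank in purple, the other bins within 1 Mb in grey and dashed lines at 2-fold. From the promoter, the purple points have a median of 0.33 near that of all bins, 0.21, and from Leaf a median of 1.70 beside 0.42, with the last bin at -2.18.

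The tissue ratios depended on the scale. A new divisor by itself moves the log2 ratio of every bin by the same amount. This was 0.74 (promoter) and 0.72 (Leaf) for the mean of chromosome 3, and 1.08 and 1.49 for the median of the fragments above 0. The pseudocount was kept at 0.1, so that the medians of the flank and of all bins moved by unequal amounts. With scores divided by the mean of all of chromosome 3, the median log2 ratio of all bins was 1.11 from the promoter and 1.86 from Leaf, and that of the flank's bins 1.19 and 3.63. With scores divided by the median of the fragments above 0, the median of all bins was 0.95 and 0.88, and that of the flank 1.06 and 1.39. Under these scales, 8 and 8 bins of the flank were at least 2-fold higher in whisker pad from the promoter, beside 52.6% and 46.3% of all bins, and 13 and 9 from Leaf, beside 58.9% and 47.4%. Relative to all bins, the median of the flank was therefore 0.12 higher from the promoter as first scaled and 0.081 and 0.11 higher under the other scales. From Leaf, it was 1.28 higher as first scaled and 1.77 and 0.51 higher under the others. The spread of these values reflects the size of the pseudocount relative to the scores. The share of fragments above 0, which does not depend on the scale, gave medians 0.13 higher than those of all bins from the promoter and 0.31 higher from Leaf.

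Within a tissue, the flank was nearer to average from the promoter than from Leaf, which is the farther of the viewpoints by 89.2 kb. In whisker pad, the log2 ratio of promoter over Leaf was 0.56, and 5 of the 15 bins were at least 2-fold higher from the promoter, against 22.1% of 181 bins. With profile corrected scores, which allow for the distance, 5 bins were counted against 46.4% of all bins, and the median of the flank was -0.19 relative to that of all bins, so that it lay above all bins before this correction and below them after it. In 0 bins was Leaf at least 2-fold higher, against 13.8%. In kidney, the log2 ratio was 1.21, and it was 1.99 without the fragment next to the gap. There, 11 bins were at least 2-fold higher from the promoter, against 37% of 181 bins, and 2 bins, the fourteenth and the fifteenth, from Leaf, against 21.5%. In 8 of the 15 bins kidney was listed at 0 from either the promoter or Leaf, and the ratio of these bins is set by the pseudocount. With profile corrected scores, 11 bins were counted from the promoter in kidney against 48.6% of all bins. The median of the flank was then 0.92 above that of all bins. By gene and not corrected for distance, the log2 ratio of promoter over Leaf was 0.26 in whisker pad and 1.75 in the kidney for *Hadh*. It was 1.37 and 2.33 for *Cyp2u1*, and 0.38 and -0.97 for the whole of *Sgms2*. The kidney value of *Cyp2u1* is set by the pseudocount, since all 12 of its fragments were at 0 from Leaf. The kidney value of *Sgms2* was -0.25 without the fragment next to the gap and turned to 0.79 with the share of fragments above 0. Without the fragments on either side of the gap, the kidney means of *Sgms2* were 0.21 from the promoter and 0.025 from Leaf. The order of the viewpoints thus turned as well.

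In whisker pad, most of the fragments found from Leaf were also found from the promoter. Both viewpoints were above 0 in 58 fragments, which were 43.9% of those detected from the promoter and 89.2% of those detected from Leaf, beside 53.9% and 86.7% over the fragments within 1 Mb. In kidney, 9 fragments were above 0 from both, which were 16.7% and 75.0%, beside 31.1% and 65.3%. From the promoter, 48 fragments were above 0 in both tissues, 84 (50.9%) in whisker pad alone and 6 (3.64%) in kidney alone, while 34.7% and 4.29% of all fragments within 1 Mb were above 0 in one tissue alone. From Leaf, 9 were above 0 in both, 56 (33.9%) in whisker pad alone and 3 (1.82%) in kidney alone, beside 26.5% and 3.36% within 1 Mb. Both whisker pad libraries were above 0 and both kidney libraries at 0 in 25 fragments (15.2%), and the reverse was found in 0. Of the 1901 fragments within 1 Mb of both viewpoints, 222 (11.7%) had the first pattern and 1 the reverse, so that the imbalance was also present outside the flank.

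Of these 25 fragments, 10 were among the 46 of *Hadh*, 4 among the 12 of *Cyp2u1* and 7 among the 64 of *Sgms2* in the flank. The others lay between the genes, 2 of them among the 14 between *Lef1* and *Hadh*. In all 4 libraries 22 of the 165 fragments were at 0, of which 16 were among the 64 of *Sgms2*, 3 among the 12 of *Cyp2u1* and 0 among the 46 of *Hadh*. For this pattern the share over the neighbourhood is not given, and whether the flank differs from it was not tested. The fragments above 0 were longer than those at 0 in each library, with median lengths of 363 and 231 bp in whisker pad and 384 and 327 bp in kidney from the promoter, and 362 and 329 bp in whisker pad and 452 and 331 bp in kidney from Leaf. Their median GC content was also higher, with 46.4% and 44.2% in whisker pad and 47.2% and 44.8% in kidney from the promoter, and 46.7% and 45.3% in whisker pad and 47.6% and 45.7% in kidney from Leaf. The part of fragment length and GC content in these results was not tested.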

How the data were processed

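4C-Seq was analysed in 4 libraries, of which each tissue and viewpoint had 1. The authors cut the chromatin with NlaIII and then DpnII, sequenced the ligation products on an Illumina HiSeq2000, aligned the reads to mm10 (Bowtie2, per the processing notes of the submitters, version not given in the sources used here) and computed fragment scores on the HTSstation. They deposited a raw signal and a smoothed signal for each NlaIII fragment. The scaling of the signal before deposit and the read depth are not given in the sources used here, so that no counting interval is given. Per the methods, fragments next to each viewpoint were excluded, and 6 (promoter) and 10 (Leaf) within 1 Mb had no value. The labels name E12.5 alone, whereas the methods name E13 as well. All per-sample columns were used (0 left out).

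From the raw signal, normalized and profile corrected scores were computed after the methods. Fragments were assigned by midpoint, and bins held at least 3 fragments. Ratios are log2 of mean scores plus 0.1. The text names the genes that overlap the flank, the 5 highest fragments of each library and the highest bins, fragments at the starts of the genes, and the protein-coding genes within 1 Mb as an order. The members and these lists were chosen with earlier results of these data known. The alternatives changed the scale, the pseudocount, the profile correction, the smoothing, the fragments, their assignment, the statistic and the bins. The code that counts bins was checked on simulated scores with planted differences. Unlike the data, these scores held no fragments at 0, so that the check does not bear on bins with many such fragments. Positions are 1-based. The tools were matplotlib 3.10.9, scipy 1.17.1, pandas 2.3.3 and numpy 2.4.6 under Python 3.11.15, with GENCODE M21 and the GRCm38 sequence.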

Additional observations from a re-analysis of the deposited data

Results flagged for a closer look

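The ratio of whisker pad over kidney had opposite signs from the promoter and from Leaf in the following cases. With 1 library each, the difference between the viewpoints was not tested. For *Sgms2* as a whole, the log2 ratio was 0.56 from the promoter and -0.78 from Leaf. The latter rested on the pair of fragments beside the gap. Once they were dropped, the Leaf means were 0.19 (whisker pad) against 0.025 (kidney), and the signs no longer differed. For the stretch between *Cyp2u1* and *Sgms2*, the log2 ratio was -0.97 and 1.35, the latter with kidney listed at 0. Both values hung on the highest fragments. With those dropped, the promoter means were 0.32 (whisker pad) and 0.29 (kidney), and the Leaf mean of whisker pad was 0.0013. In the bins of the flank, the log2 ratio was -0.18 and 1.46 in the second and -0.71 and 0.52 in the sixth. It was -0.78 and 0.34 in the eighth and -0.55 and 1.89 in the ninth. It was 1.59 and -0.0095 in the fourteenth and 0.97 and -2.18 in the fifteenth, the bin with the fragment next to the gap.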

How the results depend on the processing

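The 4 log2 ratios of the whole flank kept their sign in all 11 alternatives, between 0.17 and 1.28 (tissues, promoter), 0.34 and 2.01 (tissues, Leaf), 0.26 and 1.31 (viewpoints, whisker pad) and 0.42 and 1.99 (viewpoints, kidney). With all of chromosome 3 as the scale, the tissue ratios were 1.14 and 2.01. From the promoter, 8 bins were then at least 2-fold higher in whisker pad, beside 52.6% of all bins. With the median of the fragments above 0, the tissue ratios were 1.28 and 1.63, with 8 bins (tissues, promoter) beside 46.3% of all bins. The viewpoint ratio in whisker pad was 1.31 with 10 bins, beside 40.9%. The bins higher in kidney or from Leaf were 0 (tissues, Leaf) and 1 (viewpoints, kidney). With a pseudocount of 1, the ratios were 0.34 (tissues, Leaf) and 0.42 (viewpoints, kidney). The bins numbered 0 and 1 for the tissues (promoter, Leaf), beside 3.68% and 4.21% of all bins. They numbered 0 and 3 for the viewpoints (whisker pad, kidney), beside 3.31% and 8.29%, and 1 for Leaf over promoter in kidney. With 0.01, there were 4 bins (tissues, promoter), beside 32.1% of all bins, and 1 (Leaf over promoter, whisker pad). Profile corrected scores gave 6 bins (tissues, promoter), beside 41.6% of all bins. The share of fragments above 0 gave a ratio of 1.07 and 10 bins (tissues, promoter), beside 48.4% of all bins. From Leaf, it gave 14 bins higher in whisker pad, beside 53.2%, and 0 higher in kidney. It gave 1 bin for Leaf over promoter in kidney. Without the highest fragment, the ratios were 1.70 (tissues, Leaf) and 1.87 (viewpoints, kidney), with 6 bins (tissues, promoter), 8 (viewpoints, whisker pad) and 0 higher in kidney or, within kidney, from Leaf. Without the fragment next to the gap, an alternative chosen after seeing the data, they were 1.74 and 1.99, with 0 and 1 such bins. Smoothed scores gave 3 bins (viewpoints, whisker pad) and 1 (Leaf over promoter, kidney), and assignment by overlap 1 (the latter). Bins of 20 kb gave 0 (tissues, promoter), 1 higher in kidney from Leaf, 1 and 6 (viewpoints, whisker pad and kidney) and 1 (Leaf over promoter, kidney). Bins shifted by 5 kb gave 5 and 1 (tissues, promoter, higher in whisker pad and in kidney) and 2 higher in kidney from Leaf. The cause was not tested for these, except that larger pseudocounts and fewer bins lower the counts by construction. A count given without the share of all bins says nothing about the flank relative to its surroundings. *Hadh* kept its signs in all alternatives. The signs of *Cyp2u1* (tissues, promoter) and of *Sgms2* (tissues, Leaf, and viewpoints, kidney) were kept in 9 of 11. A single library in each group, unknown depth and the many fragments at 0 limit all values.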
